A study of Mus musculus with 4 samples.

Results

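Expression of 10 genes of the vascular endothelium was followed in whole male mouse gonads from E12.5 to E15.5 (embryonic days). They were chosen by name: the receptor genes Kdr, Flt1, Flt4, Tie1, Tek and Eng, the junction genes Cldn5, Cdh5 and Pecam1, and the ligand gene Vegfa. All 10 had a probe on the arrays, 14 probes in all, out of 16358 gene symbols with a probe. To be tested, a probe had to exceed background clearly ("well above background" to the scanner software) on each array of some stage. This held for 9 of the 10 genes, with 13 probes, and for 13475 gene symbols over the whole array. The groups were whole gonads at E12.5, at E13.5, at E14.5 and at E15.5, all from wild-type males of the mouse line MCH, with no treatment given in the labels. The number of embryos behind each RNA is not given in the sources used here. Each stage had 2 Agilent arrays of 1 colour (Cy3), so there were 8 arrays, and the series text calls the arrays of a stage biological duplicates. The samples were whole organs, so a level joins the share of endothelial cells in the gonad with the RNA per cell, and fewer cells of a type and less RNA per cell cannot be told apart.

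Blood vessels are lined by endothelial cells, which sense growth factors of the VEGF family through the receptor tyrosine kinases that Kdr (VEGFR2), Flt1 (VEGFR1) and Flt4 (VEGFR3) encode. Kdr carries most of the VEGF-A signal for growth and migration, and Flt1 binds VEGF-A tightly and also occurs as a soluble decoy. Flt4 binds VEGF-C and VEGF-D and serves lymphatic and sprouting vessels. A further pair of receptors, Tie1 and Tie2 (the product of Tek), sets how stable a vessel is, and Tie2 binds the angiopoietins. Endoglin (Eng) is a co-receptor for ligands of the BMP and TGF-beta family. VE-cadherin (Cdh5), claudin 5 (Cldn5) and PECAM1 hold neighbouring endothelial cells together, in adherens junctions, tight junctions and at other cell contacts. In the mouse, endothelial cells migrate into the male gonad from the neighbouring mesonephros around the time the testis cords form, and they build the coelomic artery. Pecam1 is also made by platelets and by fetal germ cells, and Vegfa is made by many cell types other than endothelium.

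Arrays differed in ways that bear on the values below. The earlier pair of stages shared 2 slides, with their first arrays on slide 1 and their second arrays on slide 2. The 4 arrays of E14.5 and E15.5 sat on slide 3, scanned in another session and read with another version of the scanner software. Changes between E13.5 and E12.5, and between E15.5 and E14.5, could thus be taken within a slide. For E14.5 against E13.5 and for the whole span, E15.5 against E12.5, slide and stage cannot be told apart. Between 24810 and 28724 of 41174 probes were well above background on an array. At E14.5 and E15.5 the arrays with unlike numbers resembled each other: deviations from the stage mean correlated at r = -0.63 between same-numbered arrays, over 28188 probes, against 0.63 for E12.5 and E13.5. Array 1 of E14.5 thus went with array 2 of E15.5. Several members followed that split, and each is given with its values per array. All values are log2 of the signal minus the array's 75th percentile over probes, called the log2 level here, and changes are differences of stage means with their standard error (SE) from limma. A gene was called changed at a Benjamini-Hochberg adjusted p under 0.05 over all 28188 probes tested, and a gene with several probes counts through the probe of highest mean.

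Kdr, Cldn5 and Tie1 fell over the stages studied, and no other member was called lower. At E15.5 the signal of Kdr was 6.04-fold lower than at E12.5, that of Cldn5 3.64-fold lower and that of Tie1 2.70-fold lower. One probe of Vegfa moved the other way and was 2.50-fold higher at E15.5 than at E12.5, whereas the other 2 probes of that gene were not called. Flt1, Tek, Cdh5, Pecam1 and Eng were not called in any of the 4 comparisons, and Flt4 was too dim to be tested. The plot of the 10 genes by array shows these patterns.

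**Figure D1:**
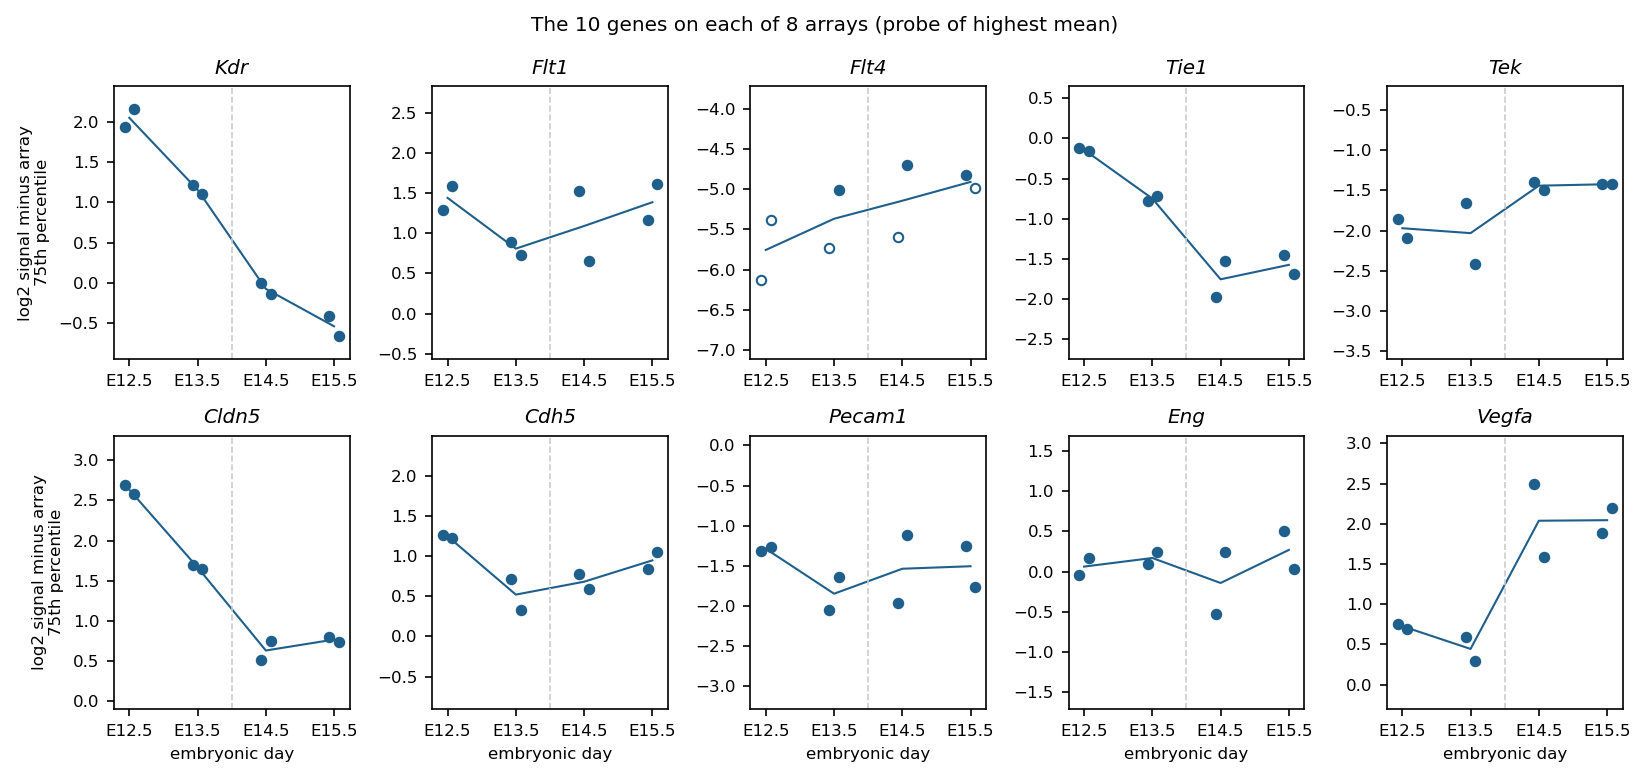
Log2 level (log2 signal minus the array's 75th percentile, vertical axis) of the 10 genes by embryonic day, through the probe of highest mean. Each point is 1 array, open where the spot was not well above background, the line joins the means of 2 arrays, and the dashed line marks the change of slide, scan session and software version; every panel spans the same height, and Kdr, Tie1 and Cldn5 lie lower at E15.5 than at E12.5 on all their arrays.

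Kdr, at chr5:75932827-75979072 in the mouse build GRCm38.p6, encodes the main signalling receptor for VEGF-A. Its log2 levels were 1.94 and 2.17 at E12.5, 1.21 and 1.10 at E13.5, -0.01 and -0.15 at E14.5, and -0.41 and -0.67 at E15.5. Every array of a later stage lay below every array of the stage before it, so the 4 stages were fully ordered. The change was -0.90 ± 0.19 (SE, n = 2 arrays per stage) for E13.5 against E12.5, which limma did not call (adjusted p = 0.0658). It was -1.23 ± 0.19 for E14.5 against E13.5 (limma adjusted p = 0.0159) and -0.47 ± 0.19 for E15.5 against E14.5, which was again not called (limma adjusted p = 0.557). Over the whole span the change was -2.59 ± 0.19 (95% interval -3.06 to -2.13), with a limma adjusted p of 0.000312. Only 1.82% of the probes tested had a lower change over that span. Where both stages shared a slide, Kdr was lower at the later stage each time, by a change of -0.73 on slide 1 and -1.06 on slide 2 for E13.5 against E12.5, and of -0.47 on slide 3 for E15.5 against E14.5.

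Cldn5, at chr16:18776847-18778262, encodes the claudin that seals endothelial tight junctions. Its log2 levels were 2.69 and 2.58 at E12.5, 1.69 and 1.64 at E13.5, 0.52 and 0.75 at E14.5, and 0.80 and 0.74 at E15.5. The arrays of E12.5, E13.5 and E14.5 did not overlap, and those of E14.5 and E15.5 did. Cldn5 was the member called for E13.5 against E12.5, with a change of -0.97 ± 0.18 (limma adjusted p = 0.0419), and that change was -1.0 on slide 1 and -0.93 on slide 2. The call rested on all 8 arrays: with any 1 of them left out the adjusted p lay between 0.0503 and 0.234, and it was also lost with arrays scaled to their medians, with the background correction normexp and with no filter on dim probes. A further change of -1.03 ± 0.18 followed for E14.5 against E13.5 (limma adjusted p = 0.0199). For E15.5 against E14.5 the change was 0.14 ± 0.18, with a 95% interval of -0.29 to 0.56. Over the whole span Cldn5 fell by 1.86 ± 0.18 on the log2 scale (limma adjusted p = 0.000738).

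Tie1, at chr4:118471191-118489849, encodes a receptor that acts beside Tie2 in vessel remodelling. Its log2 levels were -0.12 and -0.16 at E12.5, -0.77 and -0.72 at E13.5, -1.98 and -1.53 at E14.5, and -1.45 and -1.69 at E15.5. As with Cldn5, the first 3 stages did not overlap and the last pair of stages did. The change was -0.61 ± 0.21 for E13.5 against E12.5 and was not called (limma adjusted p = 0.225), although both slides gave it, with -0.66 on slide 1 and -0.56 on slide 2. For E14.5 against E13.5 it was -1.0 ± 0.21 (limma adjusted p = 0.0326), and over the whole span -1.43 ± 0.21 (limma adjusted p = 0.0037). The difference between E15.5 and E14.5 was 0.18 ± 0.21, which did not exceed the spread of the arrays.

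The change between E14.5 and E13.5, where the slide changes too, was less stable than the whole span. Its call was lost for Kdr without array 1 or array 2 of E13.5 or array 1 of E14.5 (limma adjusted p from 0.0602 to 0.0826). Cldn5 lost it without the same 3 arrays (0.0796 to 0.0985). For Tie1 the call remained without array 2 of E14.5 (0.0387) and was lost without any other array (0.0564 to 0.143). With normexp, or with only the 4 arrays of these stages, 0 of the 10 genes were called in this step, and with no filter 1 was. The whole-span calls of Kdr, Cldn5 and Tie1 remained with normexp (limma adjusted p = 0.00906, 0.0188 and 0.0479). They also remained with no filter and with only the 4 arrays of E12.5 and E15.5. In the 8 fits without 1 array, the whole-span change lay between -2.72 and -2.47 for Kdr. It lay between -1.92 and -1.81 for Cldn5 and between -1.55 and -1.31 for Tie1.

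The upstream sequences of the tight junction gene and the receptor gene that fell together differ in what they hold, and they are printed to show this. They are the 250 bases before the annotated start of Cldn5 at chr16:18776597-18776846 (plus strand) and of Tie1 at chr4:118489850-118490099 (minus strand), from RefSeq, build GRCm38.p6, each written 5′ to 3′ on the gene's strand. Capitals mark GGAA, the core letters bound by ETS factors, which drive many endothelial genes, and GGGCGG, the GC box, each searched on both strands (TTCC and CCGCCC on the other), with no overlap between them here.
Cldn5: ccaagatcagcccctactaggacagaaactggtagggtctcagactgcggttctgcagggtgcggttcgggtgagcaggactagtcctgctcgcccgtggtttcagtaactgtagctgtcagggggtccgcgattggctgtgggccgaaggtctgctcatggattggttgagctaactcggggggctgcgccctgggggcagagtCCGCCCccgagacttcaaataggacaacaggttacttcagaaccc
Tie1: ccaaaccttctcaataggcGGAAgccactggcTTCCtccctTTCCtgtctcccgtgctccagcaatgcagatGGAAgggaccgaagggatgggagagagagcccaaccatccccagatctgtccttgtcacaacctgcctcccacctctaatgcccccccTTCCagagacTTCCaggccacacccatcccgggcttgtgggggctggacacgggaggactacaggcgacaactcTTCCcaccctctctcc

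The Tie1 window held 7 matches to GGAA and 0 to GGGCGG, and the Cldn5 window held 0 to GGAA and 1 to GGGCGG. In the Kdr window, which lies inside the annotated span of the gene, there were 4 and 2. GGAA was present in 93.4% of all 32851 windows of the same length, with a median of 3 matches, and GGGCGG in 32.7%. Sequences for 8 of the 10 genes were in the table used, and the others with an entry held 2 to 6 matches to GGAA (Flt1 4, Flt4 2, Tek 2, Eng 3, and Vegfa 6 and 2 in its 2 entries). As with Kdr, the Flt1 window and the Vegfa window with 2 matches lie inside the annotated span of the gene, and the Tek window overlaps it. A match is a description of the letters and not a binding site.

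Flt1, at chr5:147561604-147726438, encodes VEGFR1 and had 2 probes. The brighter one had log2 levels of 1.29 and 1.59 at E12.5, 0.89 and 0.72 at E13.5, 1.52 and 0.66 at E14.5, and 1.16 and 1.61 at E15.5. Its low point was E13.5, whose arrays lay below both arrays of E12.5. The change for E13.5 against E12.5 was -0.63 ± 0.33 with this probe and -0.72 ± 0.32 with the other, and limma called neither (adjusted p = 0.427 and 0.348). Over the whole span they changed by -0.05 ± 0.33 and 0.30 ± 0.32. Both probes showed the split of the late arrays, with array 1 of E14.5 and array 2 of E15.5 above the array beside them. Where Kdr was 6.04-fold lower at E15.5 than at E12.5, the 95% interval of the brighter Flt1 probe ran from -0.83 to 0.72 on the log2 scale.

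Flt4, at chr11:49609679-49652739, encodes VEGFR3 and was the dimmest member. Its probe was well above background on 3 arrays, namely array 2 of E13.5, array 2 of E14.5 and array 1 of E15.5, and on no more than 1 array of any stage. Log2 levels were between -6.13 and -4.70, close to background, so no fold is given.

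Tek, at chr4:94739086-94874976, encodes Tie2, the receptor for the angiopoietins. Its log2 levels were -1.85 and -2.09 at E12.5, -1.65 and -2.41 at E13.5, -1.39 and -1.49 at E14.5, and -1.42 and -1.43 at E15.5. Unlike its partner Tie1, it was not lower at the later stages: both arrays of E15.5 lay above both of E12.5. The change over the whole span was 0.55 ± 0.27 (95% interval -0.10 to 1.20, limma adjusted p = 0.162), and 0.59 ± 0.27 for E14.5 against E13.5 (limma adjusted p = 0.188). Neither was called, and the difference between the changes of Tek and Tie1 was not tested.

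Cdh5, at chr8:104101613-104144504, encodes VE-cadherin, the adherens junction protein that defines endothelium, and had 2 probes. The brighter gave log2 levels of 1.26 and 1.23 at E12.5, 0.71 and 0.33 at E13.5, 0.78 and 0.58 at E14.5, and 0.84 and 1.06 at E15.5. The other gave -0.25 and -0.85 at E12.5, -0.77 and -1.53 at E13.5, -0.36 and 0.04 at E14.5, and 0.14 and -0.43 at E15.5. Both were lowest at E13.5, with changes against E12.5 of -0.73 ± 0.21 (limma adjusted p = 0.144) and -0.60 ± 0.37 (limma adjusted p = 0.52). Over the whole span the probes had opposite signs, -0.30 ± 0.21 and 0.40 ± 0.37, and limma called neither (adjusted p = 0.299 and 0.421). Cdh5 was thus well above background at every stage, and its 95% intervals over the span, -0.80 to 0.20 and -0.47 to 1.28, did not reach the change of Kdr, Cldn5 or Tie1.

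The 5 genes outside the 10 whose values followed the brighter Cdh5 probe most closely over the 8 arrays were Nek2 (r = 0.99), Hlf (0.98), Itgb7 (0.95), Zfc3h1 (0.94) and Col14a1 (0.94). They came from 11808 genes well above background on all arrays, and the 8 points share stages and slides, so these values only describe the arrays.

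Pecam1, at chr11:106654213-106715281, had log2 levels of -1.31 and -1.26 at E12.5, -2.05 and -1.64 at E13.5, -1.96 and -1.11 at E14.5, and -1.25 and -1.76 at E15.5. Again the arrays of E13.5 lay below both of E12.5, with a change of -0.56 ± 0.34 (limma adjusted p = 0.512). The arrays of E14.5 and E15.5 overlapped with those of both earlier stages, with array 1 of E14.5 and array 2 of E15.5 the lower arrays of their stages, and the change over the span was -0.22 ± 0.34 (95% interval -1.02 to 0.59).

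Eng, at chr2:32646595-32682669, encodes endoglin. Log2 levels were -0.04 and 0.17 at E12.5, 0.10 and 0.24 at E13.5, -0.53 and 0.24 at E14.5, and 0.51 and 0.03 at E15.5. All 4 stages overlapped. Over the whole span the change was 0.21 ± 0.30, with a 95% interval of -0.52 to 0.93.

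Vegfa, at chr17:46016993-46032377, encodes the ligand of Kdr and Flt1, and its 3 probes disagreed. The brightest probe (A_52_P638895) gave log2 levels of 0.76 and 0.69 at E12.5, 0.59 and 0.30 at E13.5, 2.49 and 1.59 at E14.5, and 1.89 and 2.20 at E15.5. All arrays of the later pair of stages lay above all arrays of the earlier pair, so the shift coincided with the change of slide. This probe rose by 1.59 ± 0.32 for E14.5 against E13.5 (limma adjusted p = 0.0282) and by 1.32 ± 0.32 over the whole span (limma adjusted p = 0.0204). The probe A_51_P482552 gave 0.01 and 0.28 at E12.5, -0.07 and -0.02 at E13.5, -0.33 and -0.03 at E14.5, and 0.28 and -0.18 at E15.5, and the probe A_52_P249424 gave -1.98 and -1.50, then -2.08 and -1.88, then -2.99 and -1.70, and -1.89 and -2.88 in the same order of stages. Their changes over the span were -0.10 ± 0.23 and -0.65 ± 0.50, opposite in sign to the first, and limma called neither (adjusted p = 0.766 and 0.34). Without array 1 or 2 of E12.5 or array 1 or 2 of E15.5, the whole-span call of the first probe was lost (adjusted p from 0.0531 to 0.115), as it was with normexp (0.0874). For E14.5 against E13.5 its call was lost without either array of E13.5, array 1 of E14.5 or either array of E15.5 (0.0517 to 0.132). The files give no position of a probe in its transcript, so which transcript forms each probe reads was not tested.

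**Figure D2:**
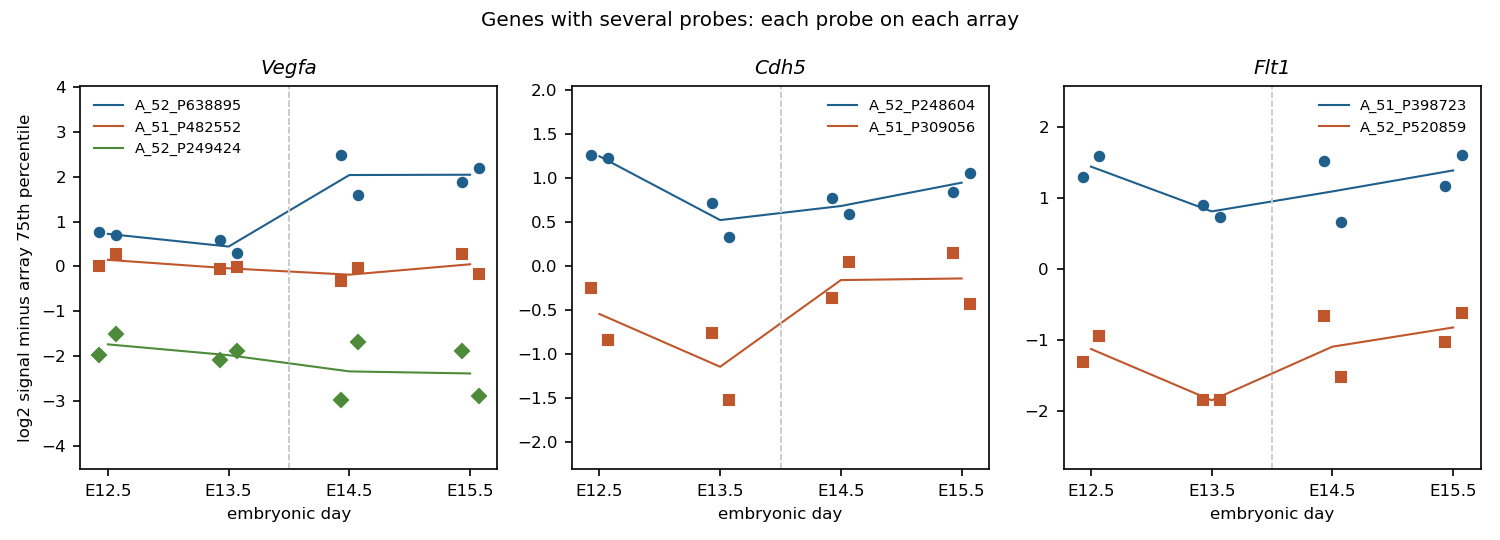
Log2 level of every probe of Vegfa, Cdh5 and Flt1 by embryonic day, with 1 point per array and a line through the means of 2 arrays. The Vegfa probe A_52_P638895 lies at 1.59 or above on the E14.5 and E15.5 arrays and at 0.76 or below on the E12.5 and E13.5 arrays, a step that the other Vegfa probes lack; the heights of different probes are not comparable.

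Counted over the 9 genes tested, 1 was called for E13.5 against E12.5, and it was lower. Of all probes, 3.23% were called in that comparison and 0.937% were called lower. Although only Cldn5 passed, 8 of 9 genes had a change below 0, as did 56.3% of all probes. The median of the 9 was -0.61, against -0.06 over all probes. In 17 other settings each of these 8 kept its sign, except Tek, which kept it in 13. For 7 of the 9 genes the 2 stages had no overlap between arrays (Kdr, Flt1, Tie1, Cdh5, Pecam1, Cldn5 and Vegfa). The share of all probes without such overlap was not counted, so this only describes the 9 genes.

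For E14.5 against E13.5, 4 of 9 genes were called, 3 lower and 1 higher, where 12.6% of all probes were called, 6.01% lower and 6.54% higher. The median of the 9 changes was 0.16, against -0.01 over all probes. For E15.5 against E14.5 limma called 0 of 9 genes, at a background of 0.578%. Kdr was the 1 gene with an unadjusted limma p under 0.05, at 0.0482. With only the 4 arrays of these stages limma also called 0 of the 9. Over the whole span 4 of 9 genes were called, 3 lower and 1 higher, where 34.4% of all probes were called, 17.4% lower and 16.9% higher. The 9 changes had a median of -0.22, against -0.08 over all probes, since the 3 that fell were offset by genes near 0 or above it. The plot of changes by comparison sets the genes side by side.

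**Figure D3:**
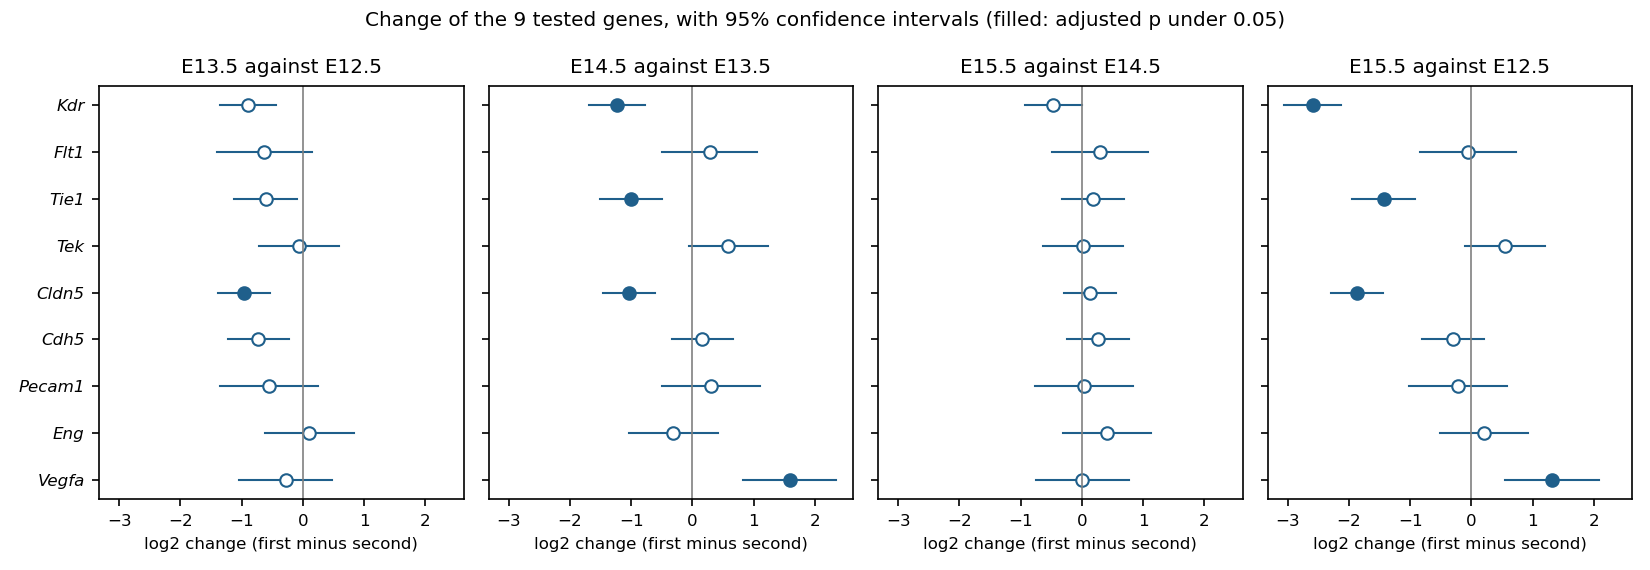
Change of the 9 tested genes in each comparison (log2, later minus earlier stage, probe of highest mean), with 95% confidence intervals from limma; filled points were called at an adjusted p under 0.05. Kdr, Tie1 and Cldn5 lie below 0 in every panel but that of E15.5 against E14.5, where Kdr alone lies below 0, and Vegfa lies above 0 in the panels of E14.5 against E13.5 and of E15.5 against E12.5.

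Other genes of the same pathways, taken from lists drawn up beside the 10 genes, were called in both directions. Over the whole span 17.4% of all probes were called lower and 16.9% higher, and the counts of each list stand beside these shares. Of the 5 tested VEGF ligands and co-receptors outside the 10, Nrp1, a co-receptor of Kdr, fell over the whole span (-1.31 ± 0.19, limma adjusted p = 0.00319), with -0.70 for its other probe. Vegfc, a ligand of Flt4, fell by 0.70 ± 0.18 on the log2 scale, and Vegfd, a further Flt4 ligand, rose by 1.03 ± 0.24. Nrp1 was also called lower for E14.5 against E13.5 (-0.80 ± 0.19), and no gene of the list was called in the other steps, where unadjusted p under 0.05 went to 2 genes for E13.5 against E12.5 and to 0 for E15.5 against E14.5.

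Among the 5 genes of the angiopoietin and Tie axis outside the 10, 3 were higher and 0 lower at E15.5 than at E12.5. Angpt2, a ligand of Tie2 that loosens vessels in many settings, rose by 1.84 ± 0.23 on the log2 scale (limma adjusted p = 0.00199) and was called already for E13.5 against E12.5 (1.35 ± 0.23, adjusted p = 0.0336). Svep1, an extracellular protein that binds Tie1, rose by 1.58 ± 0.24. Angpt1, the ligand that activates Tie2, was not well above background at E12.5 and at E15.5 stood at least 2.76-fold higher (limma adjusted p = 0.0205), but its other probe changed by -0.73. The level of "at least" sets each dim array at the lowest signal well above background there, or at its own where that is higher.

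In the endoglin and BMP receptor list, 10 genes were tested and 4 were lower over the whole span. Bmpr2, a receptor that works with endoglin, changed by -3.42 ± 0.64 (limma adjusted p = 0.00841), Smad1 by -1.12 ± 0.31 with 0.54 for its other probe, and Id3, a target of BMP signalling, by -1.07 ± 0.20. Of 19 endothelial transcription factor genes tested, 4 were lower and 0 higher at E15.5. Erg, an ETS factor of endothelium, was not well above background at E15.5 and was at least 1.53-fold lower there (limma adjusted p = 0.00825), Mef2c changed by -1.51 ± 0.19 and Ets2 by -0.98 ± 0.21. Duplicates of Klf2, a flow-responsive factor of the same list that is also induced in many other cells, lay far apart, with log2 levels of 6.77 and 9.54 at E12.5, 6.65 and 9.35 at E13.5, 2.51 and 6.70 at E14.5, and 5.82 and 2.55 at E15.5; it was named after its values were seen. The low late arrays of Klf2 were array 1 of E14.5 and array 2 of E15.5, those that stood together in Pecam1 and Flt1.

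A list of other endothelial genes, mainly of the surface and junctions, had 31 tested, of which 6 rose and 5 fell over the whole span. These counts were near the shares of all probes called, 16.9% higher and 17.4% lower. The list shares a gene with the transcription factor list. Higher were Vwf, the clotting protein stored in endothelial cells and platelets (3.07 ± 0.31, limma adjusted p = 0.000926), the junction gene Jam2 (2.57 ± 0.25, with 2.31 for its other probe) and the adhesion gene Mcam (1.50 ± 0.19). Lower were Adgrl4, an adhesion receptor of sprouting vessels (at least 2.76-fold, not well above background at E15.5), Nos3, the endothelial nitric oxide synthase (-1.39 ± 0.33, limma adjusted p = 0.019), and Icam2 (-1.12 ± 0.27). The list median was -0.04 over the span, against -0.22 for the 9 genes. Of 19 genes of arterial, venous, lymphatic and tip cells, 4 rose and 3 fell, again near those shares. Pdpn (2.32 ± 0.26), the lymphatic and macrophage gene Lyve1 (1.37 ± 0.37) and the Notch ligand gene Jag1 (0.95 ± 0.24) were among the higher ones. Dll4 (-1.71 ± 0.28), Gja4 (-1.15 ± 0.19) and the basement membrane gene Nid2 (-0.74 ± 0.23) were the lower ones. Arterial genes were not counted apart from the rest of the list. The plot of lists shows the 9 genes within these ranges.

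**Figure D4:**
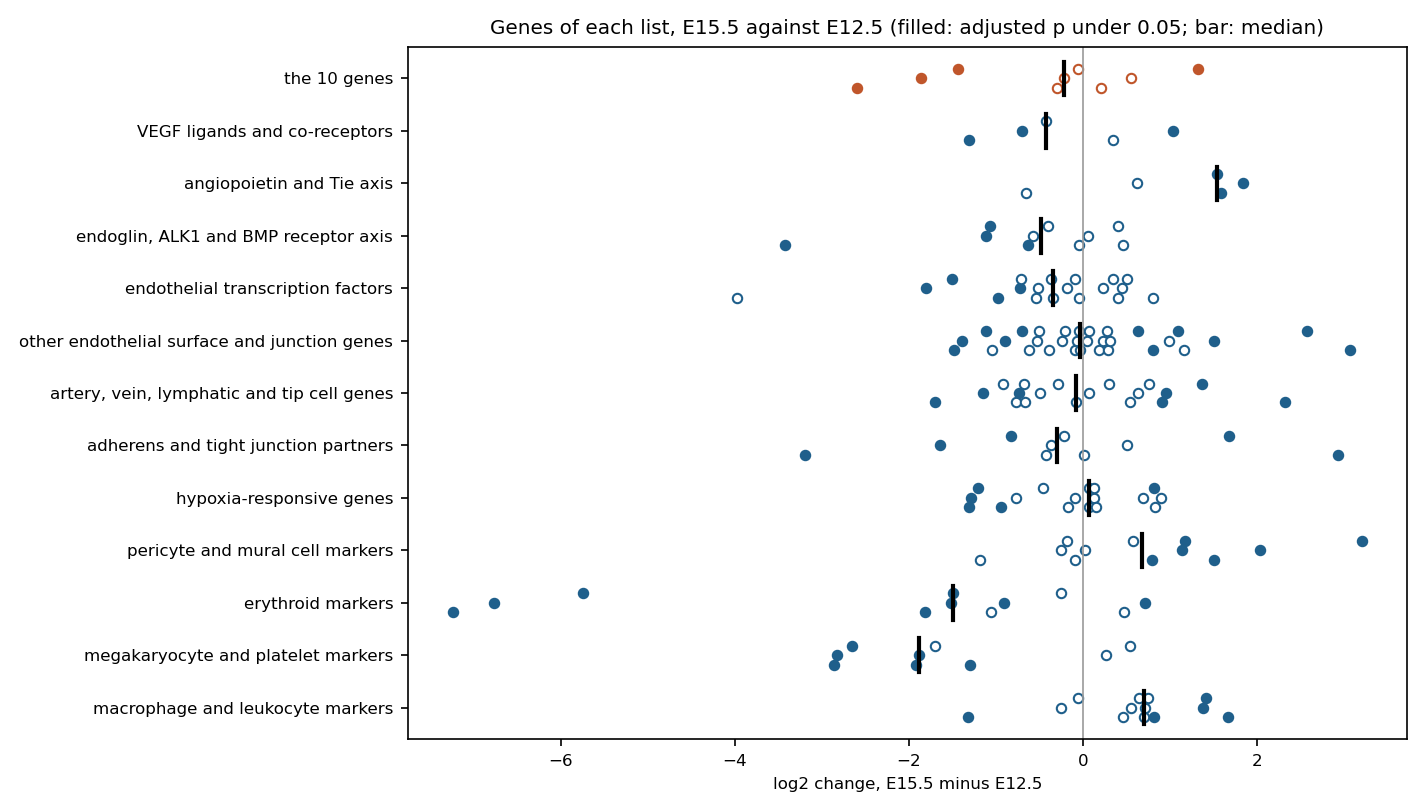
Change between E15.5 and E12.5 (log2, E15.5 minus E12.5) of the tested genes of each list, 1 point per gene through its probe of highest mean, filled where called at an adjusted p under 0.05, with a bar at the list median. The 9 tested members stand in the top row with a median of -0.22, and are left out of the lists below it; erythroid and platelet lists have medians of -1.50 and -1.89.

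The same lists were read by single steps too. Of all 28188 probes, 3.23% were called for E13.5 against E12.5, 12.6% for E14.5 against E13.5 and 0.578% for E15.5 against E14.5. An unadjusted limma p under 0.05 went to 4513, 9037 and 2493 probes in the same order. For E13.5 against E12.5 limma called 0 of the 19 transcription factor genes (5 with an unadjusted p under 0.05) and 0 of the 19 arterial, venous, lymphatic and tip cell genes (6), and of the 31 surface and junction genes it called Jam2 (1.64 ± 0.25) and Ushbp1 (1.55 ± 0.28), both higher. The medians of these lists were -0.44, -0.37 and -0.25, beside -0.61 for the 9 genes and -0.06 for all probes. Across slides, between E14.5 and E13.5, Mef2c was lower (-1.32 ± 0.19), as was Erg (at least 1.61-fold, measured on 1 array of E13.5), while Lmo2 (0.96 ± 0.20), Vwf (1.41 ± 0.31), Gimap4 (1.08 ± 0.21), Mcam (0.96 ± 0.19), Pdpn (1.64 ± 0.26) and Hey2 (0.93 ± 0.22) were higher. For E15.5 against E14.5 limma called 0 genes of the 3 lists, and 1 gene, in the surface and junction list, had an unadjusted p under 0.05.

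Among 10 tested partners in adherens and tight junctions, 2 rose and 3 fell. Occludin (Ocln), well above background on 1 of the 2 arrays of E12.5, rose by 2.93 ± 0.32 and p120 catenin (Ctnnd1) by 1.68 ± 0.34, while among the lower genes the epithelial and germ cell cadherin gene Cdh1 fell by 3.19 ± 0.27 and alpha-catenin (Ctnna1) by 0.83 ± 0.20, all on the log2 scale. Vegfa responds to low oxygen, and a list of genes that sense low oxygen or respond to it had 17 tested. Of these, 1 rose (Bnip3, 0.82 ± 0.25) and 4 fell over the span, among them Pdk1 (-1.31 ± 0.22), Egln3 (-1.28 ± 0.19) and Pgk1 (-1.20 ± 0.21). For E14.5 against E13.5, the step at which the Vegfa probe rose, limma called 0 of these 17, also with only the 4 arrays of the stages, and 6 had an unadjusted p under 0.05. Of all 28188 probes, 12.6% were called in that step and 9037 had an unadjusted limma p under 0.05. The largest changes among the 17 were 0.91 for Bnip3 and 0.79 for Hk2 (limma adjusted p = 0.0614 and 0.155).

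Markers of other cells in the organ were counted as well. Of all probes, 0.937% were called lower for E13.5 against E12.5. Over the whole span 17.4% were called lower and 16.9% higher. Of 11 erythroid genes tested, 5 were lower for E13.5 against E12.5 and 7 for the whole span, where 1 was higher. The embryonic globin genes Hbb-bh1, Hbb-y and Hba-x changed by -7.24 ± 0.27, -6.77 ± 0.38 and -5.75 ± 0.24 over the span. The higher gene was Alas2 (0.71 ± 0.22, limma adjusted p = 0.0463). A further globin gene, Hba-a1, changed by -0.25 ± 0.44 and was not called. The summed linear level of the erythroid list, in units of the array's 75th percentile, was 193 to 207 at E15.5, against 292 to 493 at E12.5. Hba-a1 gave the largest part of that sum, with log2 levels of 7.26 and 8.39 at E12.5 and 7.51 and 7.64 at E15.5. Of 9 megakaryocyte and platelet genes, 6 were lower and 0 higher at E15.5: Gp5 by at least 2.98-fold, Gp1ba by at least 3.04-fold and Ppbp by -2.65 ± 0.48 on the log2 scale. Their summed level was 2.85 to 2.99 at E15.5, against 4.14 to 4.24 at E12.5. Of 12 pericyte genes, 6 were higher and 0 lower, led by Abcc9 (3.20 ± 0.57), Acta2 (2.04 ± 0.19) and Mcam. Their sums were 87.4 to 94.2 at E15.5, 56.9 and 96.1 at E13.5, and 33.7 to 83.4 at E12.5. The E12.5 sums lay apart mainly through Tagln, with log2 levels of 2.70 and 5.70 there. Over the span its probe changed by -0.09 and its other probe by 2.95, so the sums show no clear rise. Of 13 macrophage and leukocyte genes, 4 were higher and 1 lower, with sums of 8.93 to 11.1 at E15.5, against 4.30 to 5.03 at E12.5. No gene of these 4 lists that had a probe was below background on all 8 arrays. Called erythroid and platelet genes were thus mostly lower over the span, as Kdr, Cldn5 and Tie1 were, and called pericyte and macrophage genes mostly higher. The part of these cells in the fall of Kdr, Cldn5 and Tie1 was not tested.

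Marker genes of cells proper to the gonad, and of the mesonephros, were counted over the same span. Of all probes, 34.4% were called there, 17.4% lower and 16.9% higher. For E15.5 against E12.5, 10 of 12 fetal Leydig cell genes were higher and 0 lower, and of 15 germ cell genes 4 were higher and 8 lower. Of 16 Sertoli cell genes, all of which passed the filter on dim probes, 3 were higher and 2 lower, and of 11 genes of the mesonephros and its ducts 1 was higher and 5 lower. Mesonephric sums were 14.8 to 17.1 at E15.5, against 23.3 to 23.6 at E12.5. Of 4 Y-linked genes tested, 1 was lower (Ddx3y, -0.68 ± 0.19), and Xist was below background on all 8 arrays. Whether any of these shifts bears on the share of the sample that was endothelial was not tested.

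A table of linear ratios that the authors deposited, with 1 value per stage, rests on the same arrays and served only to check directions. In the authors' deposited table the change over the whole span was -2.92 for Kdr, -2.19 for Cldn5, -1.75 for Tie1 and 1.0 for the Vegfa probe A_52_P638895, on the log2 scale, so each called member kept its direction. That table is centred otherwise, since the median of all probes in it shifted by -0.40 over that span and by -0.25 for E15.5 against E14.5. On its scale several changes that were not called lay below 0 where they lay above 0 here, namely those of Cldn5, Tie1, Tek, Pecam1, the Vegfa probes A_52_P638895 and A_51_P482552 and the dimmer Cdh5 probe in the last step, of Eng in the first step, and of Eng and the dimmer Flt1 probe over the whole span.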

How the data were processed

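Per the labels, total RNA of dissected gonads was turned into Cy3 cRNA and hybridised. Gene expression was read from 8 scanner files with spot intensity on a linear scale. Per the file headers, Agilent Feature Extraction (9.1.3.1 for E12.5 and E13.5, 9.5.3.1 for E14.5 and E15.5; the submitters' processing notes name 9.5) had subtracted background and detrended the processed intensity, without scaling between arrays. The authors also deposited linear ratios, 1 column per stage (medians 1.14, 1.00, 0.898 and 0.859 from E12.5 to E15.5); their direction was borne out by the scanner values, while scaling, centring and the combination of duplicates remain unknown.

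Spots of a probe were averaged without outlier spots and control spots, log2 was taken after scaling to each array's 75th percentile over 41174 probes, and 28188 probes that the software marked as clearly above background on each array of some stage were tested with limma 3.58.1 in R 4.3.3, in 1 model with a mean per stage (4 residual and 2.66 prior degrees of freedom). The number of arrays limits the precision, and p-values measure only the spread between duplicates. RefSeq accessions in the files gave 1 symbol (GRCm38.p6) to 22951 probes (55.7%), several to 0 and none to 18223. Simulated data with known changes were used to check the model code.

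The 10 genes, the 17 lists and the rules were chosen with earlier results of these data known. Named beside the 10 are, per list and comparison, at most 3 higher and 3 lower called genes of largest change, the 2 largest where a list had no call, and the 5 genes most like Cdh5; 11 listed genes had no probe, and 1 gene that this rule names is not reported here. Slides tie arrays 1 and arrays 2 of E12.5 and E13.5 (correlation of deviations 0.63), so a fit with the slide as a block was run. Other scalings, background corrections, filters, blocks and fits without each array were tried. The files have no mean signal, so normexp (offset 50) used the median signal.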

Additional observations from a re-analysis of the deposited data

How the results depend on the processing

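In 17 other settings Kdr, Cldn5 and Tie1 stayed lower and called for E15.5 against E12.5, and each called change of a probe of the 10 genes kept its direction in every setting of that comparison. Filters, blocks and fits without an array of another stage could change only the calls, and not the size or direction of a change. For E13.5 against E12.5 the number of members called, 1, became 0 with arrays scaled to their medians, with normexp, with no filter, with only the 4 arrays compared and without any array, and the count of all probes, 910, became 1 with normexp, 560 with normexp after 3 extreme local backgrounds were replaced (added after seeing the data), 478 with no filter, 153 with only 4 arrays and 199 to 759 without an array. For E14.5 against E13.5, 4 members became 0, 1 and 0 with normexp, no filter and only 4 arrays, and 0 to 4 without an array, and 3539 probes became 0, 1274, 937 and 214 to 2732. For E15.5 against E14.5 members stayed at 0, while 163 probes became 0 with normexp, 17 with probes above background on all 8 arrays, 0 with only 4 arrays and 0 to 84 without an array. For E15.5 against E12.5, 4 members became 3 with normexp, where Vegfa lost its call, and 3 to 4 without an array, and 9686 probes became 1321 with normexp and 4311 to 10230 without an array. The cause was not tested. With slide as a fixed replicate block the counts were 931 probes and 1 member for E13.5 against E12.5 and 188 and 0 for E15.5 against E14.5; as a random block (correlation 0.061) they were 3102 and 4 for E14.5 against E13.5 and 9262 and 4 for the whole span. Pairing E14.5 and E15.5 by array number gave 20 probes and by crossed numbers 200, with 0 members each. With normexp after that replacement, 67.3% of calls for E14.5 against E13.5 were lower, against 47.9% in the reported setting, and 64.8% against 50.7% for the whole span. Counting Vegfa through either other probe left 3 members called for E14.5 against E13.5 and 3 for the whole span. Signals near background limit Flt4.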
